A study of Mus musculus with 98 samples.

Results

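The mRNA decay machinery is described here through 48 genes that were listed by name: 16 of deadenylation, 9 of decapping and 5′-to-3′ decay, 10 of the RNA exosome, 9 of nonsense-mediated decay, and 4 that encode sequence-specific binders. They are 48 of the 21812 gene symbols in each gene table, and all 48 were found in every table by symbol. All 48 also passed the filter on low counts in each of the 8 tables that were tested.

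Most cytoplasmic mRNAs are lost in steps. Deadenylases shorten the poly(A) tail: PAN2 with its partner PAN3, and the CCR4-NOT complex, built on the scaffold CNOT1 with the nucleases CNOT6, CNOT6L, CNOT7 and CNOT8. The shortened mRNA is then decapped by DCP2 with DCP1A or DCP1B and helpers such as EDC3, EDC4, DDX6 and LSM1, and is degraded from the 5′ end by XRN1, or from the 3′ end by the exosome, a ring and cap of EXOSC subunits joined by the nucleases DIS3 and EXOSC10. Nonsense-mediated decay is run by the helicase UPF1 with UPF2 and UPF3, the kinase SMG1 and the factors SMG5 and SMG6. Proteins such as ZFP36 (tristetraprolin), which binds AU-rich elements, and PUM2, a Pumilio protein, bring CCR4-NOT to chosen mRNAs. N6-methyladenosine, written m6A, is a base mark on mRNA: VIRMA and METTL3 belong to the complex that writes it, YTHDF2 reads it and recruits CCR4-NOT, and IGF2BP3 is a reader known for stabilising mRNAs.

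The study followed RNA levels and RNA stability in mouse TBLC, a totipotent-like stem cell culture, and in cells that left this state. Every group had 2 replicates. TBLC were grown in 2MYCP medium, and diffTBLC are TBLC moved to SLM medium for 3 days. The sorted groups were the CD140+ cells (PrE-T) and the CD140- cells (EPI-T) of diffTBLC, set against unsorted TBLC. In TBLC_PlaB- the cells had been in SLM for 8 hours, and TBLC_Ctrl stayed in 2MYCP. Actinomycin D, which stops transcription, was given for 0, 1, 2 or 3 h in 8 arms: diffTBLC against TBLC, TBLC_PlaB- against TBLC_Ctrl, and, all in diffTBLC, siVirma against the control siNC1 and siIgf2bp3 against the control siNC2. Steady-state libraries of diffTBLC carried siVirma or siMettl3 against siNC, and diffTBLC RNA bound by anti-IGF2BP3 or anti-YTHDF2 antibodies (RIP) was set against its own input. Whether the replicates are separate cultures is not labelled, so the spread behind every p-value may be a technical one.

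Of 98 samples in 49 groups, 86 had gene counts, with 2483808 to 29471283 counts per library. The fewest counts of any member in a tested library were 5, in the Ythdf2 RIP. In the sorted libraries, 12 primitive endoderm markers summed to 21300 to 21600 CPM in PrE-T, 335 to 337 CPM in EPI-T and 2400 to 2480 CPM in TBLC, and 10 pluripotency markers to 930 to 946, 3550 to 3580 and 2500 to 2510 CPM in the same order. A list of 10 markers of 2-cell-like cells summed to 15.4 to 18.8 CPM in PrE-T with 2 of them at 0, against 348 to 360 CPM in EPI-T and 196 to 197 CPM in TBLC with 1 at 0. A list of 14 fibroblast or feeder markers summed to 453 to 472 CPM in PrE-T, 633 to 637 CPM in EPI-T and 2880 to 2970 CPM in TBLC, and its part in the results below was not tested. In these bulk samples, fewer cells of a type and less RNA per cell cannot be told apart. CPM are read counts scaled to a common library size within each table, given as replicate 1 and replicate 2 and comparable within a table only.

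The promoters of 4 members are shown because the results turn on them: Exosc5 and Exosc3, ring and cap subunits of the exosome that moved with other subunits in most comparisons, Dcp1b, the member with the fewest counts in the sorted libraries and a lower level in PrE-T and diffTBLC, and Tob1, an adaptor of CCR4-NOT whose mRNA was lost fast. Sequences are from RefSeq in build GRCm38.p6, which is not the mm39 build of the gene tables, and run 5′ to 3′ over 250 bases before and 50 bases after the start. Exosc5 lies at chr7:25658903-25659202, plus strand, Exosc3 at chr4:45320567-45320866, minus strand, Dcp1b at chr6:119175003-119175302, plus strand, and Tob1 at chr11:94211204-94211503, plus strand. Capitals mark matches on either strand to GCGCATGCG (NRF1) in Exosc5, CCGGAAG (ETS) in Exosc3, CCGGAAG and AAGATGGCG (YY1) in Dcp1b, and GGGGCGGGG (SP/KLF) followed by TATAAA (the box bound by TBP) in Tob1.
Exosc5: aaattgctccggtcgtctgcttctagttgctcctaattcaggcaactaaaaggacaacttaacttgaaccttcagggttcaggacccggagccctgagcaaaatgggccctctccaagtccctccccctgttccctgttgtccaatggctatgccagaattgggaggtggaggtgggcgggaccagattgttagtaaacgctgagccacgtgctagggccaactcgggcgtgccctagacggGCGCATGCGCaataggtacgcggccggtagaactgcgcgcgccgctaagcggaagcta
Exosc3: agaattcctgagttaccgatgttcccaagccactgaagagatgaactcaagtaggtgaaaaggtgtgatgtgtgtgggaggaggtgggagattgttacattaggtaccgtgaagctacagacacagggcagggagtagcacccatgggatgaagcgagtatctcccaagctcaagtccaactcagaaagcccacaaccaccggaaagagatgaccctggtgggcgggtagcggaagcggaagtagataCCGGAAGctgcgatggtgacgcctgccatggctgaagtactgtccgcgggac
Dcp1b: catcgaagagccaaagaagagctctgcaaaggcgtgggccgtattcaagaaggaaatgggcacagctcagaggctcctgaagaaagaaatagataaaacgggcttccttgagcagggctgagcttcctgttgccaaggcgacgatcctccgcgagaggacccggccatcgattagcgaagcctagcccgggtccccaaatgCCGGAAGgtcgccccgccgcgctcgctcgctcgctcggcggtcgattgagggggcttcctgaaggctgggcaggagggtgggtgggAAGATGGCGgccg
Tob1: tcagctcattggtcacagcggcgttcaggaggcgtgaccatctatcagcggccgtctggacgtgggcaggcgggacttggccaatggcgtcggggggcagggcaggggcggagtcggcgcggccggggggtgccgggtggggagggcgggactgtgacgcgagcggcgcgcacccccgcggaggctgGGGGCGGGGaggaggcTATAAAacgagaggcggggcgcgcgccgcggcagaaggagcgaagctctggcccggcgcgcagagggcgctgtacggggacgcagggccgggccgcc

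Of the 48 genes, 40 had a promoter window matched by symbol, and each motif was searched on both strands. The first base of the match lay at -8 and, on the other strand, -7 in Exosc5, at -2 in Exosc3, -49 and 38 in Dcp1b, and -63 and -47 in Tob1, counted from the start, and of the matches in capitals those of Exosc5 overlapped each other. These genes had 49 windows, and a gene was counted when any window held the motif. CCGGAAG was in 14 of the 40 (35%), against 9.93% of all 27025 genes with a window, and GGGGCGGGG was in 13 (32.5%), against 12.9%. GCGCATGCG was in 4 (10%: Exosc5, Exosc10, Smg9 and Upf1), against 1.95%, and AAGATGGCG in 4 (10%: Cnot3, Dcp1b, Exosc2 and Upf3b), against 1.64%. TATAAA was in 2 (5%: Tob1 and Zfp36l1), against 15.7%. Median GC content was 64% in the members' windows and 52.7% in all windows. A match describes the letters in this window and is not a bound site.

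The CD140+ and CD140- cells were compared first, since they are the 2 outcomes of the same 3 days in SLM. The decay genes took a smaller share of counts in PrE-T (0.419 to 0.422%) than in EPI-T (0.589 to 0.6%), with TBLC between them (0.497 to 0.498%). Set against EPI-T, 9 of the 48 were higher in PrE-T and 24 lower at an adjusted p under 0.05 (edgeR quasi-likelihood test, Benjamini-Hochberg over all genes of the table), where 68.6% of all genes were called. The members' median log2 difference was -0.24, and that of all genes 0.03. The share called was thus close to the background. Of all genes, 35.8% were called higher and 32.8% lower. Scaled by library totals in place of TMM, the split was 7 higher and 29 lower.

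Dcp2, the decapping enzyme, had 100.2 and 97.1 CPM in PrE-T, 273 and 261 CPM in EPI-T and 209 and 203 CPM in TBLC. PrE-T lay below both other groups without overlap, with a log2 difference from EPI-T of -1.44 ± 0.06 (SE, adjusted p = 5.52e-13) and from TBLC of -1.06 ± 0.06. Of the 9 decapping genes, 6 fell and 1 rose in PrE-T against EPI-T. Dcp1b, a cofactor of the decapping enzyme, had 1.64 and 0.868 CPM in PrE-T, 2.71 and 2.735 CPM in EPI-T and 3.48 and 5.06 CPM in TBLC, on 21 to 116 counts a library. Its difference from EPI-T was -1.11 ± 0.42 (adjusted p = 0.0261), a call lost without EPI-T replicate 1 or 2 or PrE-T replicate 2 (-0.72 without the last), and that from TBLC was -1.75 ± 0.41. Xrn1, the cytoplasmic 5′-to-3′ exonuclease, had 42.5 and 38.5 CPM in PrE-T, 55.6 and 60.9 CPM in EPI-T and 79.6 and 79 CPM in TBLC. The 3 groups did not overlap, and the log2 differences were -0.52 for PrE-T against EPI-T, -0.97 for PrE-T against TBLC and -0.44 for EPI-T against TBLC.

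Of the 16 deadenylation genes, 4 rose and 8 fell in PrE-T against EPI-T. Tob1, an adaptor that links CCR4-NOT to other proteins, had 62.7 and 63.1 CPM in PrE-T, 28.2 and 24.6 CPM in EPI-T and 49.3 and 55.8 CPM in TBLC, and its relative Tob2 had 21.6 and 21.2 CPM in PrE-T, 14.6 and 13.9 CPM in EPI-T and 25.4 and 21.3 CPM in TBLC. For both, EPI-T was below the other 2 groups, with log2 differences of 1.25 ± 0.10 for Tob1 and 0.59 ± 0.14 for Tob2 in PrE-T against EPI-T, and of -0.99 and -0.71 in EPI-T against TBLC. Cnot1, the scaffold of CCR4-NOT, had 432 and 394 CPM in PrE-T, 727 and 699.6 CPM in EPI-T and 462 and 454 CPM in TBLC, so that EPI-T stood above the others (-0.79 for PrE-T against EPI-T). Cnot3, a subunit of the NOT module, had 143 and 148 CPM in PrE-T, 203 and 198 CPM in EPI-T and 112 and 113 CPM in TBLC, with 0.83 for EPI-T against TBLC. Parn, a poly(A)-specific ribonuclease, had 63.96 and 68.8 CPM in PrE-T, 75.2 and 81.9 CPM in EPI-T and 40.9 and 34.1 CPM in TBLC, and TBLC was the lowest group. Its log2 differences from TBLC were 0.82 in PrE-T and 1.06 in EPI-T. Cnot2, with 77.7 and 75.2 CPM in PrE-T, 91.65 and 101 CPM in EPI-T and 101 and 114 CPM in TBLC, fell in PrE-T against TBLC (-0.49), and Cnot11, with 48.4 and 47.1 CPM in PrE-T, 44.5 and 48.3 CPM in EPI-T and 55.6 and 54.2 CPM in TBLC, was lower in EPI-T than in TBLC (-0.24), a call lost in DESeq2 and when a library was left out (adjusted p up to 0.174).

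Nearly all exosome genes were higher in both sorted groups than in TBLC. In PrE-T 9 of the 10 were higher than in TBLC and 0 were lower, where 33.5% of all genes were called higher, with a median log2 difference of 0.70. EPI-T likewise had 9 higher and 0 lower, where 30.1% of all genes were called higher, with a median of 0.59. Exosc2, a cap subunit, had 208 and 216.5 CPM in PrE-T, 298 and 279 CPM in EPI-T and 114 and 114 CPM in TBLC, and Exosc3, also of the cap, had 91.6 and 105 CPM in PrE-T, 81.6 and 77.55 CPM in EPI-T and 52.7 and 55.4 CPM in TBLC. TBLC was the lowest group for both, at log2 differences of 0.90 ± 0.06 and 0.86 ± 0.08 for PrE-T. Exosc4 and Exosc9 belong to the ring. The levels were 57.3 and 60.4 CPM in PrE-T, 42.5 and 44.2 CPM in EPI-T and 30.8 and 33.1 CPM in TBLC for Exosc4, and 115 and 98.7 CPM in PrE-T, 99.6 and 91.4 CPM in EPI-T and 59.8 and 64.4 CPM in TBLC for Exosc9. Both ring subunits were thus lowest in TBLC, with 0.88 and 0.78 for PrE-T. Dis3, the catalytic exonuclease, took another course, with 364 and 389.9 CPM in PrE-T, 758 and 752 CPM in EPI-T and 291 and 284 CPM in TBLC. EPI-T was higher than both, at 1.39 ± 0.05 against TBLC, and the log2 difference of PrE-T from EPI-T was -1.003 ± 0.05. Under library totals all 9 calls in EPI-T stayed, while in PrE-T 6 of 9 stayed and Exosc10, the nuclear exonuclease, changed sign to -0.11.

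Upf2, which bridges UPF1 and UPF3 in nonsense-mediated decay, had 111 and 124 CPM in PrE-T, 239 and 236 CPM in EPI-T and 165 and 164 CPM in TBLC. EPI-T was highest and PrE-T lowest, with a log2 difference of -1.02 ± 0.06 between PrE-T and EPI-T, and 5 of the 9 genes of this pathway fell in PrE-T against EPI-T. Smg9, a regulator of the kinase SMG1, had 23.6 and 25.4 CPM in PrE-T, 14.6 and 12.9 CPM in EPI-T and 14.35 and 16.4 CPM in TBLC, and rose in PrE-T against EPI-T (0.83 ± 0.14) and against TBLC (0.67). Among the binders, Zfp36 had 11.1 and 10.1 CPM in PrE-T, 28.1 and 22.1 CPM in EPI-T and 8.602 and 7.68 CPM in TBLC, and EPI-T lay above the other 2 groups, by a log2 difference of 1.63 ± 0.16 over TBLC. For PrE-T against EPI-T the log2 difference was -1.25. Zfp36l1, its relative, had 92.8 and 85.4 CPM in PrE-T, 56.2 and 51.6 CPM in EPI-T and 71.95 and 63.3 CPM in TBLC, the reverse order between PrE-T and EPI-T (0.72 ± 0.08). Pum2 had 139 and 142 CPM in PrE-T, 245 and 226 CPM in EPI-T and 205 and 218 CPM in TBLC, lower in PrE-T than in EPI-T (-0.75) and TBLC (-0.59).

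Counted over all 48, PrE-T had 21 higher and 11 lower than TBLC, where 67.3% of all genes were called, and EPI-T had 31 higher and 6 lower, where 64.9% were. Median log2 differences were 0.11 in PrE-T and 0.34 in EPI-T for the members, against -0.03 and -0.07 for all genes. Both comparisons use the same TBLC libraries. Library totals move the median of all genes to -0.35 and -0.28 in these comparisons, and the splits to 11 higher and 24 lower in PrE-T and to 21 higher and 11 lower in EPI-T. Directions of members near 0 therefore depend on the scaling.

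**Figure D1:**
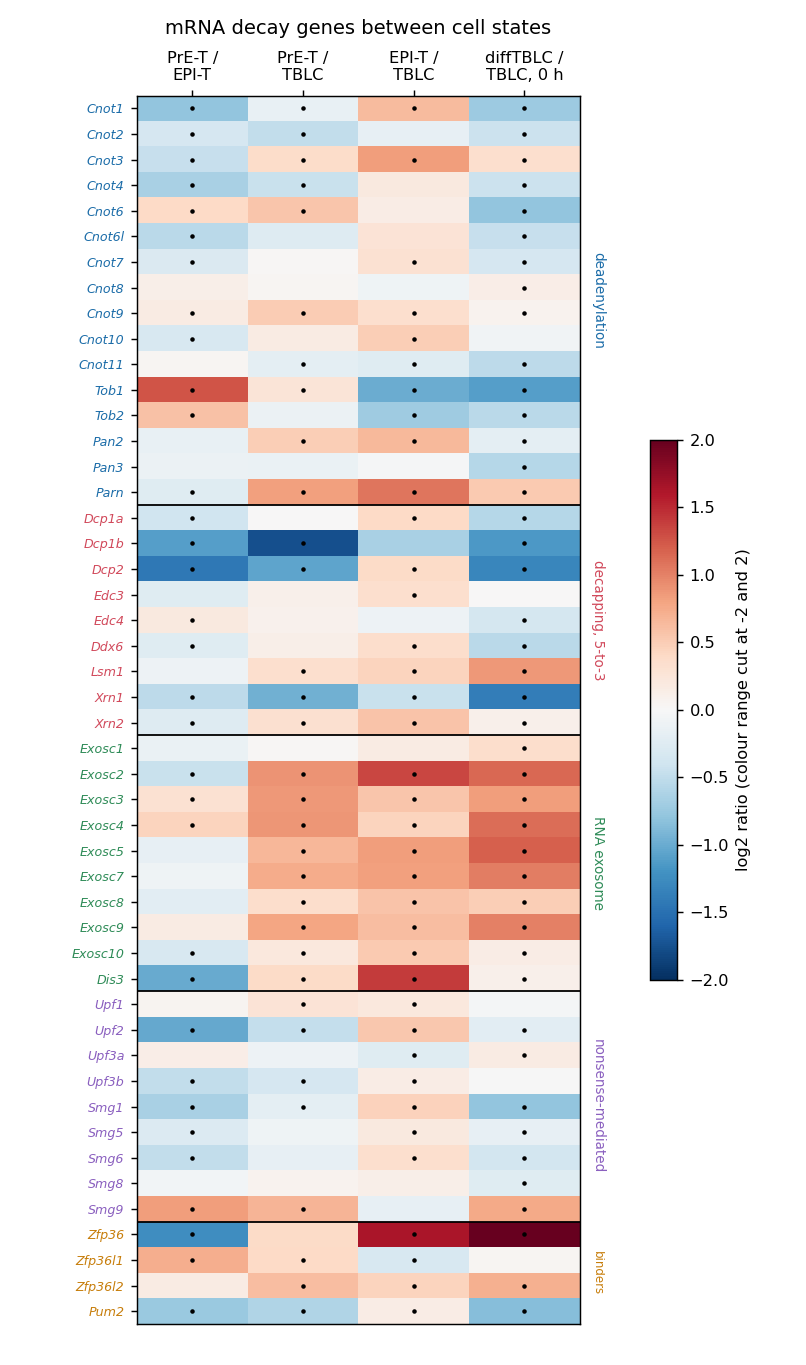
Log2 differences of the 48 decay genes, in rows by role, for PrE-T against EPI-T, PrE-T against TBLC, EPI-T against TBLC and diffTBLC against TBLC at 0 h, with the colour scale cut at 2 in both directions and a black dot where the adjusted p was under 0.05. Of the 10 exosome genes, 9 were higher in each sorted group than in TBLC and 10 in diffTBLC, and Zfp36 in diffTBLC (2.14) lies past the end of the scale.

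**Figure D2:**
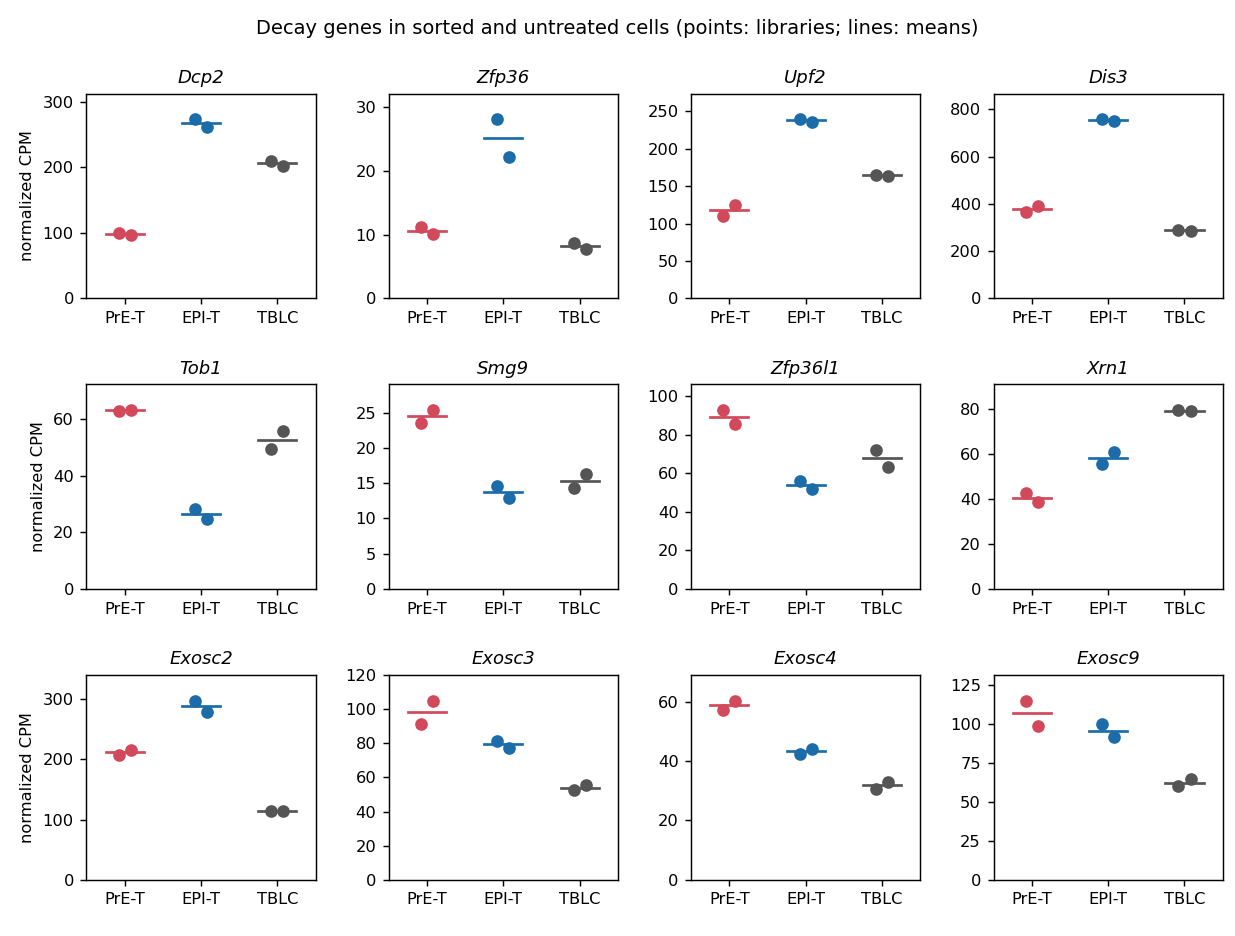
Normalized CPM of 12 decay genes, each in a panel with its own axis from 0, with 2 replicates as points and their mean as a line, for PrE-T, EPI-T and TBLC. Dcp2 at 97.1 to 100.2 CPM is lowest in PrE-T, and Dis3 at 752 to 758 CPM is highest in EPI-T.

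The unsorted cultures gave a separate look at the exit from the TBLC state, in libraries of their own taken at 0 h of actinomycin D. In diffTBLC 10 of 10 exosome genes were higher than in TBLC, while 11 of 16 deadenylation genes, 6 of 9 decapping genes and 5 of 9 genes of nonsense-mediated decay were lower. Over the 48, 20 were higher and 23 lower, where 82.5% of all genes were called (42.8% higher and 39.7% lower), and the median log2 difference was -0.06 against 0.02 for all genes. The members took 0.407 to 0.408% of counts in diffTBLC, against 0.530 to 0.531% in TBLC. Ribosomal protein genes took 10.6 to 10.7% of counts in diffTBLC, against 7.99 to 8.01% in TBLC, feeder markers summed to 474 to 487 CPM, against 1430 to 1440 CPM, and primitive endoderm markers to 5100 to 5120 CPM, against 593 to 612 CPM. The part of these in the members' differences was not tested.

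Exosc5, a ring subunit, had 72.6 and 78.15 CPM in diffTBLC, against 32.7 and 33.3 CPM in TBLC, a log2 difference of 1.19 ± 0.05 (adjusted p = 1.81e-38). Exosc2 had 131 and 132 CPM in diffTBLC, against 60.1 and 58.5 CPM in TBLC (1.15 ± 0.04). Both diffTBLC libraries were well above both TBLC libraries for these subunits. Exosc4 had 38.8 and 38.97 CPM in diffTBLC, against 17.35 and 18.6 CPM in TBLC (1.12), and Exosc7, also of the ring, had 75.3 and 77.9 CPM in diffTBLC, against 37.15 and 38.3 CPM in TBLC (1.02). Exosc9 rose by 1.01 and Exosc3 by 0.83. The nucleases moved least: with library totals, which shift the median of all genes to -0.19, Dis3 came to -0.11 and Exosc10 to -0.06, while the other 8 exosome genes stayed higher. The whole split under that scaling was 14 higher and 32 lower.

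Zfp36 rose most of the 48, with 34.9 and 32.7 CPM in diffTBLC, against 7.93 and 7.425 CPM in TBLC and a log2 difference of 2.14 ± 0.08. In the sorted cells its log2 difference from TBLC had passed in EPI-T, while that in PrE-T, 0.38 ± 0.17, had not (adjusted p = 0.0554). Xrn1 fell most, with 34.6 and 31.8 CPM in diffTBLC, against 88.1 and 85.75 CPM in TBLC (-1.39 ± 0.05), followed by Dcp2 with 89.9 and 95.1 CPM in diffTBLC, against 225 and 233 CPM in TBLC (-1.31 ± 0.03). The 2 groups did not overlap for either gene of the 5′-to-3′ route. Untreated TBLC cultures also differed from each other in both genes. In CPM of all counts, TBLC and TBLC_Ctrl at 0 h had 275 and 88.3 for Dcp2, and 104 and 44.3 for Xrn1. The part of this in the differences here was not tested. Dcp1b had 2.95 and 2.61 CPM in diffTBLC, against 6.17 and 6.101 CPM in TBLC (-1.14 ± 0.16), and Tob1 had 26.4 and 29.3 CPM in diffTBLC, against 60.9 and 59.03 CPM in TBLC (-1.11 ± 0.05). Pum2, with 152.5 and 153 CPM in diffTBLC, against 270 and 281 CPM in TBLC, was lower in diffTBLC by a log2 difference of -0.85. Among members that also passed between PrE-T and EPI-T, Smg1 (-0.79) and Cnot6 (-0.79), a CCR4-NOT nuclease, were lower too.

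These libraries share no sample with the sorted ones. Of the 48 genes, 29 were called both in diffTBLC against TBLC and in PrE-T against TBLC: 16 higher in both, among them Dis3 and 8 Exosc genes, 10 lower in both (Cnot1, Cnot2, Cnot4, Cnot11, Dcp1b, Dcp2, Xrn1, Upf2, Smg1 and Pum2), and 3 in opposite directions (Cnot6, Tob1 and Pan2). With EPI-T against TBLC, 32 were called in both: 16 higher, 4 lower (Cnot11, Tob1, Tob2 and Xrn1), and 12 opposite, among them Dcp2, Upf2, Smg1 and Cnot1. Of the 12, Pum2 came to -0.058 and Smg5 to -0.015 in EPI-T against TBLC with library totals. With library totals, the calls of Dis3, Exosc10 and Xrn2 were lost in both diffTBLC and PrE-T against TBLC, and that of Cnot9 in diffTBLC and EPI-T. Those of Cnot3, Exosc8 and Pan2 were lost in PrE-T, Lsm1 in PrE-T and EPI-T, and Cnot7, Dcp1a and Smg6 in EPI-T. Leaving out a library cost the PrE-T calls of Cnot1, Exosc8, Exosc10 and Tob1, and the EPI-T calls of Pum2, Smg5 and Upf3a. The diffTBLC calls of Cnot9, Xrn2 and Upf3a were lost in DESeq2 and on leaving out a library, that of Upf3a also with library totals. The Cnot11 calls against TBLC were lost in DESeq2 and on leaving out a library, in PrE-T and in EPI-T. How many of all genes were called in both was not counted. Tob1 was thus lower in diffTBLC and EPI-T than in TBLC, and higher in PrE-T at 0.26, which was -0.06 with library totals. Whether diffTBLC was closer to PrE-T than to EPI-T was not tested.

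After 8 hours in SLM, no member passed the test. TBLC_PlaB- against TBLC_Ctrl at 0 h had 0 of 48 called by edgeR and 0 by DESeq2, with 2 at an unadjusted p under 0.05 and log2 differences between -0.09 and 0.15, where 1.25% of all genes were called. Without TBLC_Ctrl 0 h replicate 1, 1 member was called. Dcp2, for example, had 78.9 and 75.8 CPM in TBLC_PlaB-, against 81.55 and 81.8 CPM in TBLC_Ctrl, and Zfp36 had 14.2 and 13.7 CPM, against 13.55 and 15.1 CPM. Both TBLC_PlaB- libraries were below both controls for Dcp2 by less than the test could call, and the groups overlapped for Zfp36.

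The actinomycin D courses asked how fast the messages of the decay machinery are themselves lost. A slope is the fitted log2 change in CPM per hour relative to the centre of all transcripts, since no spike-in is described, so a slope below 0 means faster loss than that centre and not an absolute half-life. In the 4 arms without siRNA, the messages of the binders and of the adaptors of CCR4-NOT were lost faster than that centre. All 4 binder genes had slopes below 0 in each of these arms, at -0.236 or less. The lower quartile of all genes was -0.16 in diffTBLC, -0.14 in TBLC, -0.18 in TBLC_PlaB- and -0.17 in TBLC_Ctrl. Of the 10 exosome genes, 6 had slopes called above 0 (adjusted p under 0.05) in diffTBLC, where 30.8% of all genes were so called. The counts were 7 in TBLC (37.2% of all genes), 6 in TBLC_PlaB- (31% of all genes) and 6 in TBLC_Ctrl (29.1% of all genes). With library totals 2 of these calls were kept in diffTBLC, 2 in TBLC, 1 in TBLC_PlaB- and 1 in TBLC_Ctrl.

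Over the 48 genes, slopes were called above 0 for 14 and below for 20 in diffTBLC, where 59.4% of all genes were called, and for 15 and 16 in TBLC (65.2% of all genes). In TBLC_PlaB- they were called above 0 for 9 and below for 28 (65.2%), and in TBLC_Ctrl for 9 and 29 (61.9%). The sign of a slope near 0 depends on the scaling. With library totals the calls above and below 0 were 3 and 35 in diffTBLC, 5 and 30 in TBLC, 2 and 39 in TBLC_PlaB-, and 3 and 36 in TBLC_Ctrl. Slopes below 0 in all 4 arms were called for 15 genes, and all 15 stayed so in all 4 under library totals. They were Cnot2, Cnot4, Cnot6l, Tob1, Tob2, Pan3, Dcp1a, Edc3, Ddx6, Exosc1, Smg8, Zfp36, Zfp36l1, Zfp36l2 and Pum2. Slopes above 0 in all 4 were called for 9 genes (Cnot10, Exosc2, Exosc5, Exosc7, Exosc8, Exosc9, Exosc10, Upf3a and Upf3b). Of these, Exosc5 alone stayed so in all 4 under library totals. Without the 0 h libraries, calls were lost for Pan3 and Zfp36 in TBLC and Exosc10 in TBLC_PlaB-. In TBLC_Ctrl they were lost for Pan3, Exosc5, Exosc7, Exosc8, Exosc9 and Upf3a. Leaving out a library cost the calls of Pan3 and Upf3a in TBLC, Exosc10 in TBLC_PlaB- and Exosc9 in TBLC_Ctrl. How many of all genes were called in all 4 arms was not counted.

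Zfp36 had the steepest loss, with slopes of -0.95 ± 0.10 in diffTBLC, -1.23 ± 0.16 in TBLC, -1.25 ± 0.16 in TBLC_PlaB- and -1.47 ± 0.17 in TBLC_Ctrl log2 per hour. Its CPM in diffTBLC were 34.9 and 32.7 at 0 h, 12.05 and 10.9 at 1 h, 7.01 and 8.08 at 2 h, 4.96 and 5.68 at 3 h, and in TBLC 7.93 and 7.425 at 0 h, 1.595 and 1.57 at 1 h, 0.956 and 0.723 at 2 h, 1.19 and 0.953 at 3 h. Both arms lost most of the message in the first hour, and the TBLC libraries changed little after 2 h, so that a straight line understates the early loss. Of its level at 0 h, 3 h left 15.7% in diffTBLC, 13.9% in TBLC, 13.2% in TBLC_PlaB- and 10% in TBLC_Ctrl.

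Tob2 had slopes of -0.72 in diffTBLC, -1.11 in TBLC, -0.81 in TBLC_PlaB- and -0.74 in TBLC_Ctrl. Its CPM were 21.6 and 19.7 at 0 h, 10.2 and 10.4 at 1 h, 6.29 and 6.71 at 2 h, 5.305 and 4.745 at 3 h in diffTBLC, and 30.4 and 29.7 at 0 h, 14.35 and 13.8 at 1 h, 5.69 and 5.87 at 2 h, 2.74 and 3.91 at 3 h in TBLC. The TBLC libraries started higher and ended lower than those of diffTBLC. Tob1 had slopes of -0.60 in diffTBLC, -0.78 in TBLC, -0.55 in TBLC_PlaB- and -0.57 in TBLC_Ctrl, and kept 30% in diffTBLC, 21.1% in TBLC, 34.2% in TBLC_PlaB- and 31.3% in TBLC_Ctrl of the level at 0 h after 3 h. Smg8, a partner of SMG1 and SMG9, kept 25.5% in diffTBLC, 18.8% in TBLC, 28.5% in TBLC_PlaB- and 21.1% in TBLC_Ctrl. Zfp36l2, an AU-rich element binder, kept 28.9% in diffTBLC, 29.7% in TBLC, 41.6% in TBLC_PlaB- and 25.5% in TBLC_Ctrl, and Cnot4, a ubiquitin ligase of CCR4-NOT, kept 44.3% in diffTBLC, 31.7% in TBLC, 32.1% in TBLC_PlaB- and 31.6% in TBLC_Ctrl. Each of these messages was well below its level at 0 h in all 4 arms.

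Exosc5 went the other way relative to the centre, with slopes of 0.23 in diffTBLC, 0.21 in TBLC, 0.20 in TBLC_PlaB- and 0.14 in TBLC_Ctrl. Its CPM were 72.6 and 78.15 at 0 h, 69.8 and 70.8 at 1 h, 91.8 and 88.4 at 2 h, 122 and 117 at 3 h in diffTBLC, and 32.7 and 33.3 at 0 h, 37.8 and 34.3 at 1 h, 42.85 and 43.7 at 2 h, 48.6 and 51.5 at 3 h in TBLC. After 3 h both arms were above their start, at 158% in diffTBLC, 152% in TBLC, 154% in TBLC_PlaB- and 138% in TBLC_Ctrl of it, where CPM gives a share of the messages left and not an amount. Exosc2 likewise reached 137% in diffTBLC, 156% in TBLC, 126% in TBLC_PlaB- and 123% in TBLC_Ctrl. Exosc4 differed from these subunits and kept 80.3% in diffTBLC, 47.8% in TBLC, 71.7% in TBLC_PlaB- and 64.9% in TBLC_Ctrl.

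**Figure D3:**
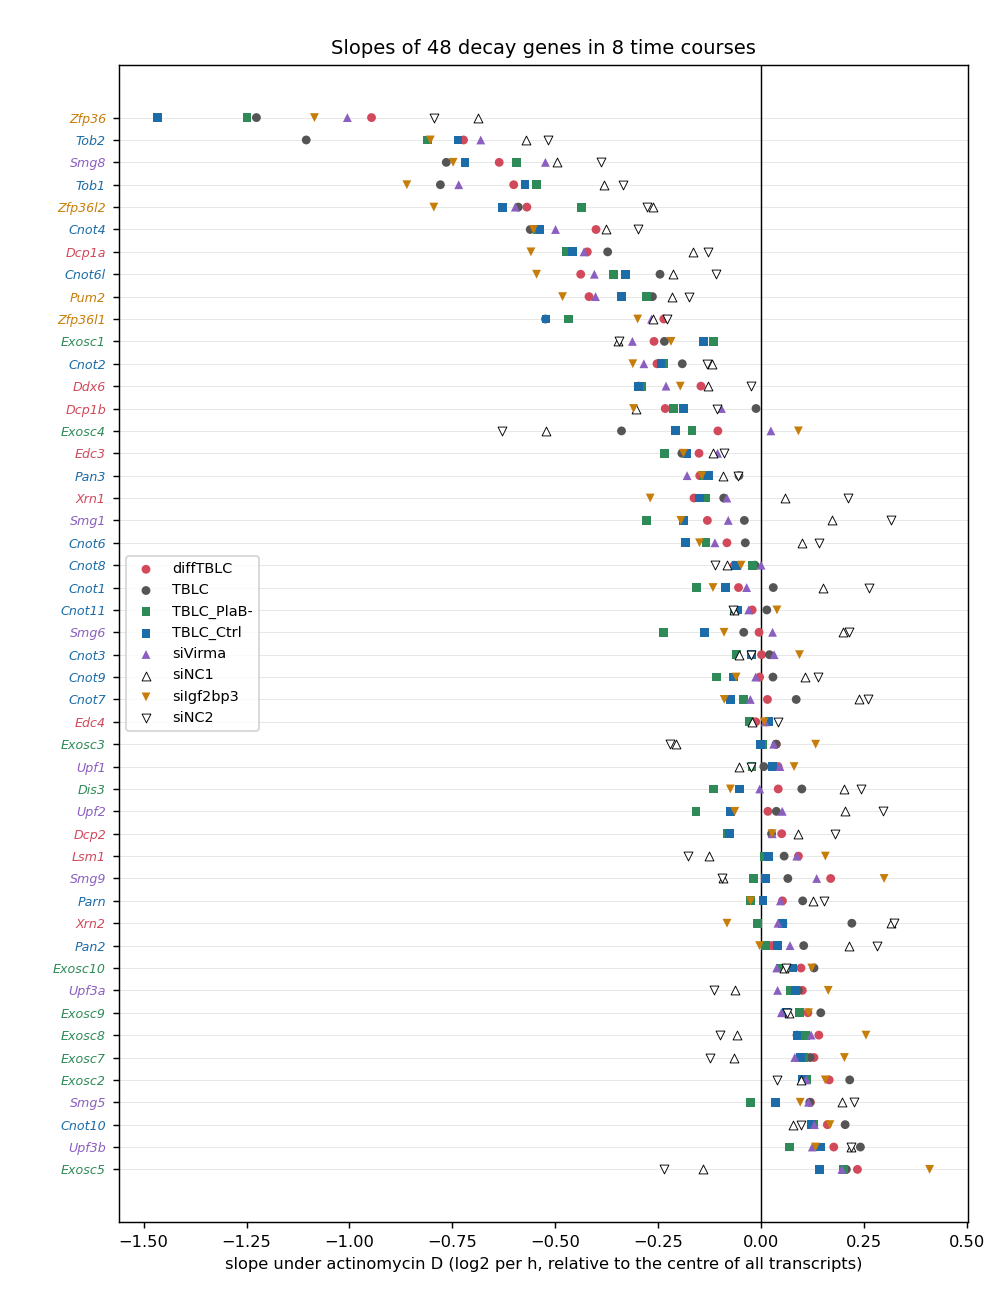
Slopes in log2 CPM per hour of actinomycin D, relative to the centre of all transcripts, of the 48 decay genes (rows, coloured by role) in all 8 arms, with 1 marker for each arm. Zfp36 lies lowest in each arm, between -1.47 and -0.69, and Exosc5 lies above 0 in the 4 arms without siRNA, between 0.14 and 0.23.

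**Figure D4:**
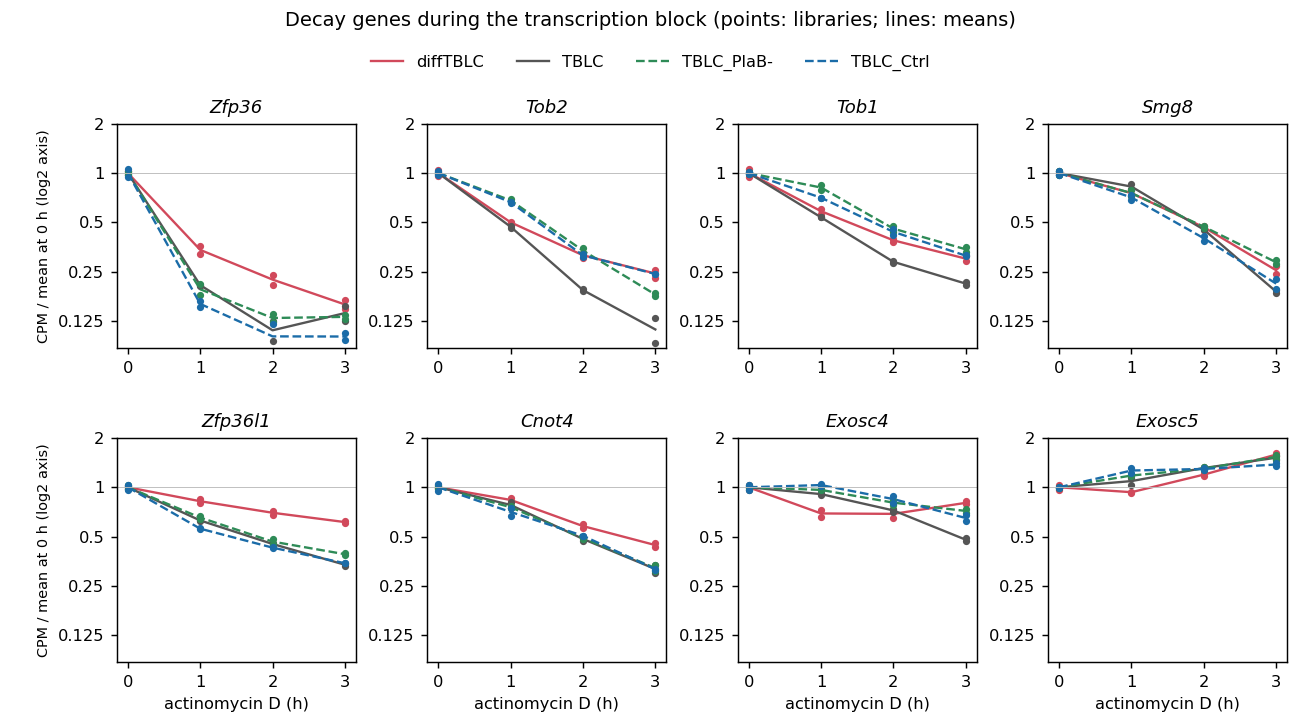
CPM of 8 decay genes at 0, 1, 2 and 3 h of actinomycin D, divided by the mean CPM of the same arm at 0 h and drawn on a log2 axis, with 1 point for each library and a line through the means of diffTBLC, TBLC, TBLC_PlaB- and TBLC_Ctrl. Zfp36 drops most in the first hour, Zfp36l1 stays highest in diffTBLC, and Exosc5 ends above its start in all 4 arms.

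The slopes of diffTBLC were set against those of TBLC. Of the 48, 4 had a higher slope (slower loss) in diffTBLC than in TBLC and 2 a lower one, where 8.21% of all genes were called. The count depended on how the hours entered: 25 of the 48 differences passed without the 0 h libraries, where 4728 of 14339 genes did, and 24 as 3 h against 0 h, where 4023 of 14463 did. Zfp36l1 had slopes of -0.24 in diffTBLC and -0.52 in TBLC, a difference of 0.29 ± 0.03 log2 per hour (adjusted p = 2.25e-05). Its CPM were 106 and 102.5 at 0 h, 87.7 and 83.4 at 1 h, 70.7 and 74.7 at 2 h, 62.9 and 64.7 at 3 h in diffTBLC, and 104 and 99.75 at 0 h, 63.9 and 63.6 at 1 h, 46.45 and 45.2 at 2 h, 34.8 and 33.6 at 3 h in TBLC. The arms began at about the same level and parted at every later hour. Tob2 differed by 0.38 ± 0.07 (adjusted p = 0.00355). These 2 calls held with any 1 library left out, while the count fell to 3 without TBLC 3 h replicate 1. The remaining calls were Cnot4 (0.16 ± 0.05), Ddx6, the helicase of decapping (0.15 ± 0.04), Xrn2, the nuclear 5′-to-3′ exonuclease (-0.17 ± 0.04), and Cnot6l (-0.19 ± 0.04). With library totals 3 calls were left, without Cnot4, Ddx6 and Xrn2.

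Between TBLC_PlaB- and TBLC_Ctrl, 0 of the 48 slope differences passed in edgeR and 0 in DESeq2, with 10 at an unadjusted p under 0.05, where 0.411% of all genes were called. Zfp36l1, which differed between diffTBLC and TBLC, had -0.47 in TBLC_PlaB- and -0.52 in TBLC_Ctrl. The range over the 48 was -0.10 to 0.22 log2 per hour, and 2 differences passed without TBLC_Ctrl 0 h replicate 1. Without all 0 h libraries 14 of the 48 passed, where 3128 of 13941 genes did, and as 3 h against 0 h 8 passed, where 982 of 14107 did.

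Libraries of diffTBLC labelled siVirma and siMettl3, after the m6A writers, were set against siNC at steady state. The target Virma had 87.1 and 81.0 CPM with siVirma, against 122 and 115 CPM with siNC, a log2 difference of -0.50 ± 0.09 (adjusted p = 1.88e-06). Mettl3 had 26.4 and 27.45 CPM in the libraries labelled siMettl3, against 31.2 and 29.7 CPM with siNC, and the difference of -0.18 ± 0.15 did not pass (adjusted p = 0.771). With siVirma, 2 of the 48 rose and 2 fell, where 7.11% of all genes were called (3.48% higher and 3.63% lower). At an unadjusted p under 0.05 there were 8, and DESeq2 called 0.

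Zfp36l1 had 91.1 and 97.5 CPM with siVirma, against 116 and 126 CPM with siNC, a log2 difference of -0.36 ± 0.08 (adjusted p = 0.00116). Smg9 had 14.9 and 13.97 CPM with siVirma, against 24.55 and 18.95 CPM with siNC (-0.59 ± 0.19, adjusted p = 0.0377). Both fell without overlap of the groups. Dcp2 had 259 and 240.5 CPM with siVirma, against 219.7 and 208 CPM with siNC (0.22 ± 0.06, adjusted p = 0.00326), and Pum2 had 310.2 and 316 CPM with siVirma, against 265 and 289.7 CPM with siNC (0.18 ± 0.05, adjusted p = 0.0151). These rises were the smaller changes, and leaving out 1 library at a time kept 1 or 2 of the 4 calls. All 4 genes were also called with siVirma over 1 to 3 h of actinomycin D, in the course described below. There Zfp36l1 was lower again, while Dcp2, Smg9 and Pum2, 3 of the 4, were called in the opposite direction. In the libraries labelled siMettl3, 1 of the 48 passed, where 0.865% of all genes did (0.412% higher and 0.453% lower): Dcp2, with 242.5 and 251 CPM, against the same siNC libraries (0.21 ± 0.06, adjusted p = 0.035). That call was lost in DESeq2 and whenever a library was left out, and 6 genes had an unadjusted p under 0.05.

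In the 2 siRNA courses the answer depended on the hour. Ribosomal protein genes took 17.8 to 18.3% of counts with siNC1 and 17.1 to 17.2% with siNC2 at 0 h, against 10.0 to 14.4% and 8.36 to 12.5% in the same controls at 1 to 3 h. With siVirma the share was 11.6 to 15.6% over all hours, and with siIgf2bp3 10.6 to 10.7% at 0 h and 11.7 to 21.1% later. The control libraries at 0 h thus stood apart from those of later hours. The 0 h comparison and the mean of 1 to 3 h are therefore given side by side. The later hours were not alike either: at 1, 2 and 3 h the share was 10.0 to 10.1%, 13.9 to 14.4% and 12.2% with siNC1. With siNC2 it was 8.36 to 8.62%, 12.4 to 12.5% and 10.0 to 10.1%. Cnot1, for example, had 439 and 433.5 CPM at 1 h, 279 and 279 CPM at 2 h and 443 and 454 CPM at 3 h with siNC2. The part of this share in the members' values was not tested. The target Virma had 34.7 and 33.6 CPM with siVirma at 0 h, against 40.7 and 41.7 CPM with siNC1 (log2 difference -0.27), and 24.5 to 31.0 CPM at 1 to 3 h, against 50.5 to 63.1 CPM (-1.04). Igf2bp3 went against its label at 0 h: it had 28.7 and 25.25 CPM in the libraries labelled siIgf2bp3, against 19.9 and 16.7 CPM in those labelled siNC2 (0.56), but 23.2 to 27.65 CPM at 1 to 3 h, against 32.2 to 44.65 CPM (-0.58).

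At 0 h of the siVirma course, 22 of the 48 were higher and 15 lower with siVirma, where 60.3% of all genes were called. The split was 29 and 7 with library totals, which put the median of all genes at 0.24 and not at 0.05. Of the 10 exosome genes 7 were lower, where 27.2% of all genes were, and of the 16 deadenylation genes 10 were higher, where 33.1% of all genes were. With library totals 4 of the 7 exosome calls were kept, and Exosc3 came to 0.013, while all 10 of the deadenylation calls were kept. Zfp36l2 had 46.8 and 49.75 CPM with siVirma, against 22.7 and 27.8 CPM with siNC1 (0.94 ± 0.07), and Zfp36 had 28.6 and 25.9 CPM with siVirma, against 16.9 and 16.6 CPM with siNC1 (0.71 ± 0.08). Both binders were higher with siVirma. Xrn1 had 32.1 and 28.99 CPM with siVirma, against 19.9 and 19.5 CPM with siNC1 (0.63), Smg1 had 61.8 and 66.1 CPM with siVirma, against 43.2 and 45.01 CPM with siNC1 (0.54), and Tob1 had 19.7 and 19.2 CPM with siVirma, against 12.8 and 15.03 CPM with siNC1 (0.49). On the other side, Exosc5 had 74.97 and 71.7 CPM with siVirma, against 134 and 133 CPM with siNC1 (-0.86 ± 0.05), and Exosc4 had 43.03 and 43.45 CPM with siVirma, against 64.8 and 70.97 CPM with siNC1 (-0.65 ± 0.06). These ring subunits gave the 2 largest falls. Smg9 had 23.3 and 23.9 CPM with siVirma, against 31.1 and 35.5 CPM with siNC1 (-0.49), Zfp36l1 had 60.5 and 59.1 CPM with siVirma, against 87.1 and 76.5 CPM with siNC1 (-0.46), and Cnot10, a CCR4-NOT subunit, had 119 and 122.5 CPM with siVirma, against 156 and 165 CPM with siNC1 (-0.41).

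Over 1 to 3 h, 17 of the 48 were higher and 24 lower with siVirma, where 71.5% of all genes were called. Exosc4 ranged over 6 libraries from 40.7 to 53.03 CPM with a median of 45.1 with siVirma, against 19.4 to 32.8 CPM with a median of 26.2 with siNC1 (0.85), and Exosc3 from 72.5 to 83.7 CPM with a median of 75.8 with siVirma, against 46.1 to 60.15 CPM with a median of 49.7 with siNC1 (0.58). Of the 10 exosome genes, 7 now were higher and 3 lower (Dis3, Exosc9 and Exosc10), and all of these calls were kept with library totals. The 71.5% of all genes covers both directions. The quartiles of the log2 difference over all genes were -0.27 and 0.29. Lsm1, a subunit of the ring that promotes decapping, ranged from 62.6 to 72.1 CPM with a median of 66.9 with siVirma, against 40.03 to 58.04 CPM with a median of 45.5 with siNC1 (0.51), Dcp1b from 2.24 to 4.101 CPM with a median of 2.49 with siVirma, against 1.42 to 2.27 CPM with a median of 2.03 with siNC1 (0.48), and Cnot8, a CCR4-NOT nuclease, from 102 to 114 CPM with a median of 108 with siVirma, against 67.35 to 85.4 CPM with a median of 80.98 with siNC1 (0.48). Lower with siVirma were Tob1, at 4.197 to 12.8 CPM with a median of 6.27 with siVirma, against 7.35 to 17.5 CPM with a median of 7.94 with siNC1 (-0.51), Ddx6, at 90.6 to 132 CPM with a median of 108 with siVirma, against 125 to 207 CPM with a median of 141 with siNC1 (-0.48), and Zfp36l1, at 33.8 to 51.3 CPM with a median of 42.2 with siVirma, against 45.6 to 70.9 CPM with a median of 58.98 with siNC1 (-0.48). Cnot6 was at 58.8 to 68.9 CPM with a median of 62.95 with siVirma, against 71.2 to 100.4 CPM with a median of 89.6 with siNC1 (-0.47), and Xrn2 at 128 to 148 CPM with a median of 137 with siVirma, against 161.5 to 219 CPM with a median of 184 with siNC1 (-0.44). The level of Tob1 fell over the hours in both arms, which is why its ranges overlap while its pairs at each hour do not. Of 30 genes called both at 0 h and over 1 to 3 h, 21 were called in opposite directions. Lower in both were 6 (Zfp36l1, Ddx6, Cnot10, Edc4, Exosc9 and Exosc10), and higher in both were 3 (Cnot8, Edc3 and Zfp36). The same count over all genes was not made, so the 21 may not be particular to the decay genes.

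The libraries labelled siIgf2bp3 followed the same outline. At 0 h, 29 of the 48 were higher and 13 lower than with siNC2, where 65.7% of all genes were called and the median of all genes was 0.14. Zfp36l2 had 53.4 and 49.1 CPM with siIgf2bp3, against 25.8 and 27.4 CPM with siNC2 (0.95 ± 0.06), and Zfp36 had 30.3 and 29.97 CPM with siIgf2bp3, against 15.96 and 16.1 CPM with siNC2 (0.91 ± 0.07). Xrn1 had 31.1 and 30.2 CPM with siIgf2bp3, against 17.04 and 17.2 CPM with siNC2 (0.84). In each the siIgf2bp3 libraries were clearly above. Smg1 had 75.1 and 74.1 CPM with siIgf2bp3, against 40.6 and 43.9 CPM with siNC2 (0.82), and Dcp1a, an activator of DCP2, had 44.2 and 40.45 CPM with siIgf2bp3, against 24.9 and 23.4 CPM with siNC2 (0.81). Exosc5 had 71.4 and 66.3 CPM with siIgf2bp3, against 123.5 and 136 CPM with siNC2 (-0.91 ± 0.06), and Exosc4 had 38.5 and 33.2 CPM with siIgf2bp3, against 62.3 and 64.7 CPM with siNC2 (-0.82 ± 0.06), again the largest falls. Smg9 had 21.4 and 21.6 CPM with siIgf2bp3, against 31.6 and 30.7 CPM with siNC2 (-0.54), Exosc8 had 83.5 and 82.99 CPM with siIgf2bp3, against 111 and 108 CPM with siNC2 (-0.40), and Exosc3 had 54.5 and 55.01 CPM with siIgf2bp3, against 71.6 and 72.2 CPM with siNC2 (-0.39).

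Over 1 to 3 h, 14 were higher and 27 lower, where 70% of all genes were called. Library totals gave 9 and 33. Exosc4 ranged over 6 libraries from 30.9 to 44.5 CPM with a median of 33.4 with siIgf2bp3, against 13.5 to 27.2 CPM with a median of 24.8 with siNC2 (0.73), Exosc5 from 69.98 to 172 CPM with a median of 92.1 with siIgf2bp3, against 52.65 to 87.99 CPM with a median of 68.7 with siNC2 (0.59), and Exosc3 from 53.9 to 74.2 CPM with a median of 58.6 with siIgf2bp3, against 39.2 to 54.7 CPM with a median of 41.4 with siNC2 (0.48). In all, 8 of 10 exosome genes were higher, of which 6 kept the call with library totals. Dis3, the catalytic exonuclease, was called lower and kept that call. The 70% of all genes covers both directions. The quartiles of the log2 difference over all genes were -0.29 and 0.27. Lsm1 ranged from 49.4 to 70.9 CPM with a median of 54.8 with siIgf2bp3, against 36.5 to 50.9 CPM with a median of 40.4 with siNC2 (0.43), and Smg9 from 22.9 to 40.6 CPM with a median of 28.02 with siIgf2bp3, against 19.2 to 25.6 CPM with a median of 22.9 with siNC2 (0.41). Lower were Smg1, at 48.7 to 66.5 CPM with a median of 56.4 with siIgf2bp3, against 59.3 to 121 CPM with a median of 114 with siNC2 (-0.74), Cnot1, at 202 to 259 CPM with a median of 237 with siIgf2bp3, against 279 to 454 CPM with a median of 436 with siNC2 (-0.69), and Tob1, at 3.48 to 13.5 CPM with a median of 6.665 with siIgf2bp3, against 8.125 to 18.7 CPM with a median of 8.54 with siNC2 (-0.67). Xrn1 was at 17 to 28.6 CPM with a median of 22.5 with siIgf2bp3, against 24.9 to 46.3 CPM with a median of 36.2 with siNC2 (-0.61), and Dcp1a at 12.7 to 32.6 CPM with a median of 21.9 with siIgf2bp3, against 23.6 to 50.3 CPM with a median of 24.96 with siNC2 (-0.55). All 37 genes called in both windows were called in opposite directions. The same count over all genes was not made, so this may not be particular to the decay genes. At 2 h alone, 10 of the 48 passed with siIgf2bp3 and 19 with siVirma, against 41 in each over 1 to 3 h. No library is shared by the 2 courses. Over 1 to 3 h, 34 were called in both: 13 higher in both, 19 lower in both, and Edc3 and Exosc9 opposite. The ribosomal protein share of both controls was highest at 0 h, then at 2 h, 3 h and 1 h. Its part in this overlap was not tested, and the overlap over all genes was not counted.

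Exosc5 shows how the hours differ. Its CPM were 71.4 and 66.3 at 0 h, 75.1 and 69.98 at 1 h, 93.6 and 90.6 at 2 h, 172 and 153.5 at 3 h with siIgf2bp3, against 123.5 and 136 at 0 h, 52.65 and 56.7 at 1 h, 83.2 and 87.99 at 2 h, 70.4 and 67.1 at 3 h with siNC2. With siVirma they were 74.97 and 71.7 at 0 h, 79.2 and 78.7 at 1 h, 106 and 101 at 2 h, 101 and 109 at 3 h, against 134 and 133 at 0 h, 56.7 and 60.6 at 1 h, 106 and 98.5 at 2 h, 85.3 and 83.98 at 3 h with siNC1. Both controls dropped sharply between 0 and 1 h, and the arms labelled siVirma and siIgf2bp3 did not. The slopes of these arms rest on the same 0 h libraries. Slope differences passed for 1 higher (Exosc4, 0.55) and 3 lower (Xrn2, -0.28; Cnot7, a CCR4-NOT nuclease, -0.26; Smg6, the endonuclease, -0.17) of the 48 with siVirma against siNC1, where 8.94% of all genes were called. With siIgf2bp3 against siNC2 they passed for 10 higher and 19 lower, where 52.4% were. Without the 0 h libraries, 0 passed in both courses, and as 3 h against 0 h, 36 passed with siVirma and 46 with siIgf2bp3. With 1 library left out at a time, the siVirma count was 0 to 23: 23 without either siNC1 1 h replicate, 7 without siNC1 2 h replicate 2, 4 without siNC1 2 h replicate 1, 1 without siVirma 1 h replicate 1 and 0 without any of the others.

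Slopes against 0 in the siRNA arms were called above and below for 4 and 15 genes with siVirma (38.1% of all genes), 13 and 18 with siNC1 (45%), 13 and 17 with siIgf2bp3 (53.5%), and 14 and 11 with siNC2 (44.5%). Library totals gave 0 and 17, 7 and 25, 2 and 31, and 9 and 16 in the same order. Without siNC1 3 h replicate 1, 20 slopes were called with siNC1 in place of 31. Across all 8 arms of the study, 7 genes were called below 0 in each: Zfp36, Tob2, Smg8, Tob1, Cnot4, Zfp36l1 and Exosc1. Called above 0 in each were 2, Cnot10 and Upf3b, and both lost the call with library totals in siVirma and siIgf2bp3. How many of all genes were called in all 8 arms was not counted.

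RNA bound by the m6A readers was read in diffTBLC. Messages of the binders and of PAN2-PAN3 were enriched with IGF2BP3, and those of the exosome were depleted with both proteins. With anti-IGF2BP3, 21 of the 48 were higher in the IP than in the input and 16 lower, where 69.7% of all genes were called; library totals gave 16 and 22 and put the median of all genes at -0.21 and not at -0.01. All 4 binders rose, with a median log2 difference of 0.98, and 8 of 10 exosome genes fell, with a median of -1.16 over the 10. The quartiles of all genes were -0.55 and 0.495. The members took 0.676 to 0.679% of counts in the IP, against 0.585 to 0.590% in the input, and ribosomal protein genes 2.65 to 2.67%, against 6.22 to 6.34%, whose part was not tested. Zfp36l1 had 444.5 and 465 CPM in the IP, against 175 and 176.5 CPM in the input (1.37 ± 0.04), and Zfp36 had 123 and 124 CPM in the IP, against 57.4 and 53.8 CPM in the input (1.15 ± 0.06). Both IP libraries were above both inputs. Pan3, the adaptor of PAN2, had 191 and 193 CPM in the IP, against 72.1 and 78.5 CPM in the input (1.35 ± 0.05), Cnot4 had 110.3 and 114 CPM in the IP, against 53.2 and 42.03 CPM in the input (1.24 ± 0.07), and Cnot1 had 1518 and 1493 CPM in the IP, against 783 and 791 CPM in the input (0.94 ± 0.02).

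Exosc4 was the most depleted, with 6.69 and 6.04 CPM in the IP, against 16.7 and 20.6 CPM in the input (-1.54 ± 0.17), before Exosc3, with 13.1 and 15.1 CPM in the IP, against 34.6 and 38.99 CPM in the input (-1.39 ± 0.11). Exosc8, another ring subunit, had 20.2 and 17.5 CPM in the IP, against 43.5 and 45.4 CPM in the input (-1.24), and Exosc5 had 11.1 and 11.4 CPM in the IP, against 24.2 and 27.7 CPM in the input (-1.21). The cap and ring subunits thus lay below the input, as did Exosc9 (-1.20) and Exosc2 (-1.12). Their nucleases did not: Exosc10 rose (0.30), and Dis3 was at -0.01 and did not pass. Lsm1 had 10.3 and 8.25 CPM in the IP, against 21.8 and 23.4 CPM in the input (-1.28), while Dcp1a rose (0.94). Igf2bp3 mRNA itself was at 0.26 in its own RIP.

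With anti-YTHDF2, 15 of the 48 were higher in the IP and 22 lower, where 79% of all genes were called (40.2% higher and 38.8% lower), and all 37 calls stayed under library totals. Ddx6, which joins deadenylation to decapping, had 912 and 988 CPM in the IP, against 161 and 154 CPM in the input, a log2 difference of 2.59 ± 0.06, the largest of the 48. Dcp1a had 305 and 311.5 CPM in the IP, against 64.1 and 77.04 CPM in the input (2.12 ± 0.08). The IP was far above the input for both decapping factors. Tob1 had 198 and 191 CPM in the IP, against 45.4 and 44.4 CPM in the input (2.12 ± 0.09), Pan3 had 357 and 365 CPM in the IP, against 90.4 and 80.1 CPM in the input (2.09 ± 0.07), and Smg8 had 71.65 and 76.5 CPM in the IP, against 16.6 and 24.1 CPM in the input (1.84 ± 0.13). Upf2 (1.46), Dcp2 (1.27), Smg1 (1.19) and Zfp36l2 (1.01) rose too. Ythdf2 mRNA was itself enriched at 1.92 ± 0.07.

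Exosome genes were depleted here as well, 9 of 10, with Exosc4 at 0.38 ± 0.24 and not passing (adjusted p = 0.136). Exosc5 had 6.001 and 5.75 CPM in the IP, against 22.7 and 30.3 CPM in the input (-2.19 ± 0.19). Exosc8 had 17.7 and 18.4 CPM in the IP, against 40.55 and 46.8 CPM in the input (-1.28), and Exosc9 had 39.7 and 43.96 CPM in the IP, against 95.3 and 97.7 CPM in the input (-1.20). Every IP library of these subunits was below every input. Cnot10 had 49.8 and 50.3 CPM in the IP, against 152 and 142 CPM in the input (-1.55 ± 0.08), and Xrn2 had 129 and 137 CPM in the IP, against 244 and 260 CPM in the input (-0.92). The members took 0.728 to 0.737% of counts in the IP, against 0.514 to 0.524% in the input, and ribosomal protein genes 2.42 to 2.43%, against 9.94 to 10.0%, whose part was not tested.

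The 2 RIPs have inputs of their own, which are not alike: Zfp36 had 57.4 and 53.8 CPM in the Igf2bp3 input and 7.71 and 8.255 CPM in the Ythdf2 input. Of the 48 genes, 28 were called in both. Enriched in both were 10 (Cnot1, Tob2, Pan2, Pan3, Dcp1a, Dcp2, Upf2, Smg1, Smg8 and Zfp36l2), and depleted in both were 11 (Cnot7, Cnot10, Xrn2, Upf3b, Exosc1, Exosc2, Exosc3, Exosc5, Exosc7, Exosc8 and Exosc9). The other 7 were opposite: Cnot3, Cnot9, Cnot11, Tob1, Edc4, Exosc10 and Pum2. With library totals Cnot9 came to -0.039 in the Igf2bp3 RIP and Exosc10 lost its call there (0.11). The Igf2bp3 calls of Cnot9, Cnot11 and Tob2 were lost in DESeq2 and without 1 or another library, that of Tob2 also with library totals. The Ythdf2 calls of Cnot1 and Pan2 were lost in DESeq2 and on leaving out a library, and that of Cnot11 in DESeq2. Those of Cnot7, Exosc2 and Exosc3 were lost on leaving out a library, and that of Pum2 without input replicate 2. How many of all genes were called in both was not counted. The 2 proteins were not tested against each other.

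**Figure D5:**
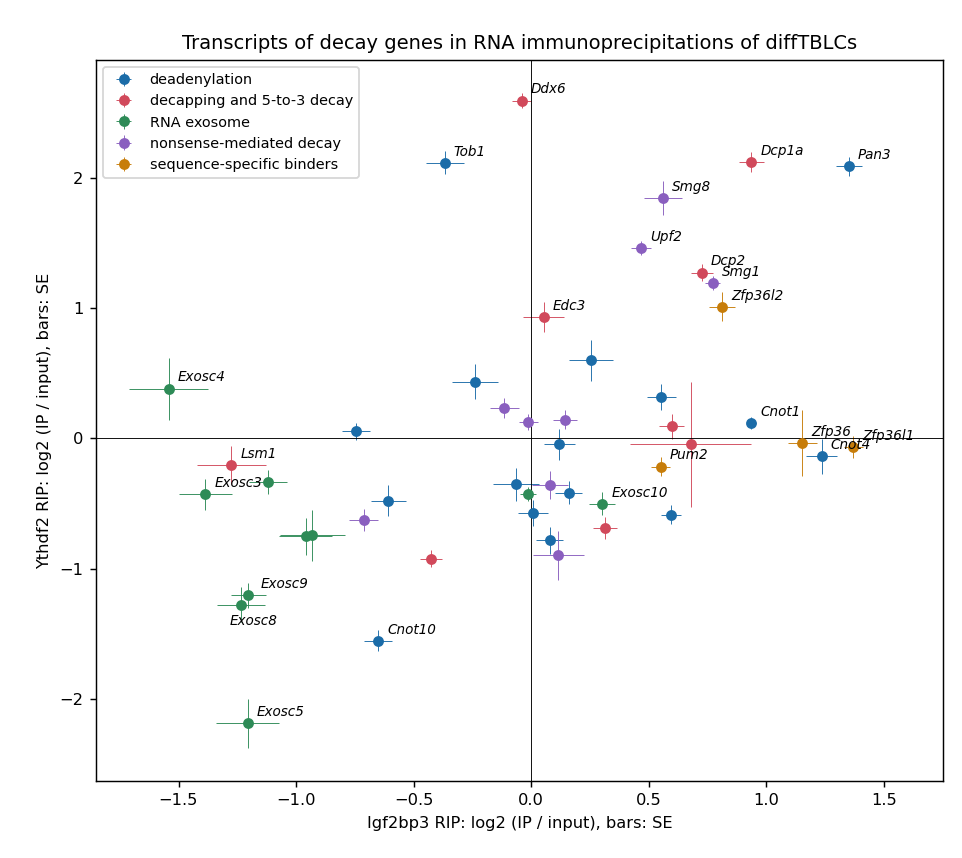
Log2 difference of IP against input for each of the 48 decay genes, with the IGF2BP3 RIP on the horizontal axis, the YTHDF2 RIP on the vertical axis, standard errors as bars and colours for the roles. The exosome subunits other than Exosc4 and Exosc10 lie below 0 on both axes, Dis3 at -0.01 with IGF2BP3, and Ddx6 is at 2.59 with YTHDF2.

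Other genes of the pathway were read from a list of 76, all in the tables, of which 71 to 74 were tested. The shares of all genes called are those given for the 48 in each comparison above. The list was not tested against them, so its counts alone do not set it apart from other genes. In PrE-T against EPI-T, 17 rose and 34 fell, with Zc3hav1, an antiviral protein that binds RNA, at 2.14 and Lin28b, an RNA-binding protein of early cells, at -3.38. Set against TBLC, 28 rose and 20 fell in PrE-T, where Lin28a was at 2.08 and Ago1, an Argonaute, at -1.47, and 40 rose and 11 fell in EPI-T, where Noct (nocturnin) was at 2.29 and Btg1, an antiproliferative partner of CCR4-NOT, at -1.54. In diffTBLC against TBLC at 0 h, 35 rose and 30 fell, with Noct at 2.19 and Tnrc6c, a GW182 protein of miRNA silencing, at -1.38. TBLC_PlaB- against TBLC_Ctrl had 3 higher and 0 lower: Lsm2 (0.46), Elavl1 (0.19) and Mphosph6 (0.17). No decay gene of the 48 had passed there, and Lsm2 is a partner of LSM1.

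Slopes of these genes were called above 0 for 23 and below for 32 in diffTBLC, 30 and 29 in TBLC, 22 and 37 in TBLC_PlaB-, and 19 and 38 in TBLC_Ctrl. Pnrc1, a cofactor of decapping, had slopes of -1.01, -0.97, -1.09 and -1.07 in these arms, and Btg1 of -1.10, -0.91, -0.94 and -0.97, values in the range of Zfp36 and Tob2. Lsm4 and Lsm7, which with LSM1 belong to the ring of decapping, were among the slowest to be lost: Lsm4 had 0.34, 0.30, 0.27 and 0.24 and Lsm7 0.31, 0.31, 0.27 and 0.20 in the same order. Steady-state siVirma had 2 higher (Lin28b 0.50, Tut4 0.46) and 3 lower (Zc3hav1 -0.45, Noct -0.22, Lin28a -0.19), and siMettl3 0 and 0. In the Igf2bp3 RIP 26 rose and 32 fell, with Tnrc6b at 1.38 and Ago2 at 1.38, against Magoh, of the exon junction complex, at -2.42. In the Ythdf2 RIP 28 rose and 35 fell, with Tnrc6c at 2.87 and Tnks1bp1, a CCR4-NOT partner, at 2.33, against Magoh at -2.97 and Lsm2 at -2.28.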

How the data were processed

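The 86 RNA libraries were made with 2 stranded kits and read on 2 instruments, and the labels do not say which library used which. In the tables that the authors deposited, each value is an unnormalized count, a whole number for 1 of 21812 gene symbols in 1 library, and libraries held 2483808 to 29471283 counts. The submitters' processing notes name Subread, STAR 2.7.11b, FastQC 0.12.1, DESeq2 and Trim Galore, without order, and build mm39. How reads shared by close paralogs (the Zfp36 family and the Tob, Cnot6, Cnot7 and Cnot8, Dcp1 and Upf3 genes) were assigned is not given in the sources used here. TBLC_S, a column name of the table with TBLC_Ctrl, was taken to mean TBLC_PlaB-, whose samples name that table and match no other column. Listed symbols absent under their current name (Skic2, Skic3, Skic8 and Dux) were read as Skiv2l, Ttc37, Wdr61 and Duxf3. The m6A peak files were not used here.

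Genes passing filterByExpr were fitted by the quasi-likelihood method of edgeR 4.0.16 (R 4.3.3) with TMM scaling, 1 table at a time. P-values were adjusted by Benjamini-Hochberg over every gene tested, and 0.05 was the threshold. In the courses, levels came from a fit of arm and hour means, and slopes from a line over the hours within each arm. Errors are standard errors of these fits. The scripts were tested on simulated data. The alternatives tried were library totals or RLE in place of TMM, DESeq2 1.42.0, a fit without the filter, a replicate block, other choices of libraries or hours, and each library left out, where a lone sample is assumed to vary like the other groups. The 48 genes and all lists were chosen with earlier results of these data known. Of the members past the threshold, the 5 largest rises and 5 largest falls whose groups do not overlap were given with their libraries. Members with a log2 change of at least 1 in size, or that passed both in PrE-T against EPI-T and in diffTBLC against TBLC, could be named with their values, others within counts of their role, and of the pathway list up to 3 rises and 3 falls a comparison. Among 43 replicate pairs, 0 held identical values. Their chi-square per gene, over genes with at least 20 counts, was 1.107 to 10.56. The lowest lie close to counting noise and may be technical repeats, and each library was counted as labelled.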

Additional observations from a re-analysis of the deposited data

Results flagged for a closer look

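The rate of loss under actinomycin D differed between paired arms, by the test of the difference of slopes itself, for 6 decay genes in diffTBLC against TBLC, 4 in siVirma against siNC1 and 29 in siIgf2bp3 against siNC2. Differences are in log2 per hour, first arm minus second, and a value above 0 is a slower relative loss in the first arm. In diffTBLC against TBLC they were Cnot4 0.16, Cnot6l -0.19, Tob2 0.38, Ddx6 0.15, Xrn2 -0.17 and Zfp36l1 0.29. The messages of the AU-rich element binder Zfp36l1 and of the CCR4-NOT adaptor Tob2 gave the 2 values that stayed called when any 1 library was left out.

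With siVirma against siNC1 the differences were Cnot7 -0.26, Xrn2 -0.28, Exosc4 0.55 and Smg6 -0.17. With siIgf2bp3 against siNC2 they were above 0 for Cnot11 0.11, Lsm1 0.33, Exosc2 0.12, Exosc3 0.35, Exosc4 0.72, Exosc5 0.64, Exosc7 0.33, Exosc8 0.35, Upf3a 0.28 and Smg9 0.39, mostly exosome genes, and below 0 for Cnot1 -0.38, Cnot6 -0.29, Cnot6l -0.44, Cnot7 -0.35, Cnot9 -0.20, Tob1 -0.53, Tob2 -0.29, Pan2 -0.29, Parn -0.18, Dcp1a -0.43, Xrn1 -0.48, Xrn2 -0.41, Dis3 -0.32, Upf2 -0.36, Smg1 -0.51, Smg5 -0.13, Smg6 -0.30, Smg8 -0.36 and Zfp36l2 -0.52. In these courses no difference passed without the 0 h libraries, where the ribosomal protein share of the controls was 17.1 to 18.3%, against 8.36 to 14.4% at their later hours, and the part of this share was not tested.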

How the results depend on the processing

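Counts of decay genes called stayed within 1.5 times of their value under most alternatives, and the exceptions follow. For steady-state siVirma, 4 calls became 0 in DESeq2 and 1 to 2 when a library was left out. For siMettl3, 1 call became 0 in DESeq2 and 0 to 0 when any library was left out. TBLC_PlaB- against TBLC_Ctrl at 0 h had 0 to 1, with the 1 when TBLC_Ctrl 0 h replicate 1 was left out. At 2 h alone, an alternative chosen after seeing the data, 19 passed with siVirma and 10 with siIgf2bp3, against 41 over 1 to 3 h in each. Slopes compared as 3 h against 0 h gave 33 calls with siVirma (main 19) and 42 with siNC2 (main 25). Leaving out 1 library gave 20 to 36 with siNC1 (main 31), the 20 without siNC1 3 h replicate 1, and leaving out 3 h, chosen after seeing the data, gave 9 with siIgf2bp3 (main 30).

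The slope difference of diffTBLC and TBLC (6 calls) had 3 with library totals, 25 without 0 h, 24 as 3 h against 0 h and 3 to 8 with a library left out, the 3 without TBLC 3 h replicate 1. That of TBLC_PlaB- and TBLC_Ctrl (0 calls) had 14 without 0 h, 8 as 3 h against 0 h, and 0 to 2 with a library left out, the 2 without TBLC_Ctrl 0 h replicate 1. That of siVirma and siNC1 (4 calls) had 15 in DESeq2, 0 with library totals, 0 with no filter, 0 without 0 h, 36 as 3 h against 0 h, 13 at 1 and 2 h alone, and 0 to 23 with a library left out, the 23 without either siNC1 1 h replicate. That of siIgf2bp3 and siNC2 (29 calls) had 0 without 0 h and 46 as 3 h against 0 h. The causes were not tested.

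Replicate numbers did not pair the samples, with correlations of -0.0478 to 0.0922 between same-numbered deviations, and a fit with the replicate block kept 662 of 669 calls of single genes, took the slope difference of siVirma and siNC1 to 2 calls and reversed 0.

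Of 669 calls of single genes, 384 kept their direction and side of the threshold under every alternative run, and 84 reversed under at least 1. Log2 values that reversed are given here, and DESeq2, RLE scaling, no filter and leaving out a library reversed 0. With library totals, PrE-T against TBLC gave Tob1 -0.062, Xrn2 -0.0068, Exosc10 -0.11 and Upf1 -0.054, and EPI-T against TBLC gave Upf3b -0.061, Smg5 -0.015 and Pum2 -0.058. In the same way, the Igf2bp3 RIP gave Cnot9 -0.039 and Smg5 -0.054, and diffTBLC against TBLC at 0 h gave Cnot8 -0.083, Cnot9 -0.14, Xrn2 -0.10, Exosc10 -0.060, Dis3 -0.11 and Upf3a -0.050. There, siVirma against siNC1 at 0 h gave Ddx6 0.059, Exosc3 0.013 and Upf1 0.064, and siIgf2bp3 against siNC2, mean of 1 to 3 h gave Cnot3 -0.059, Cnot11 -0.043 and Exosc9 -0.021. There, the slope in diffTBLC gave Parn -0.069, Dcp2 -0.071, Lsm1 -0.030, Exosc9 -0.0067, Exosc10 -0.024, Upf3a -0.020 and Smg5 -0.00095, and the slope in TBLC gave Cnot7 -0.033, Pan2 -0.015, Parn -0.017, Exosc8 -0.031, Dis3 -0.019 and Upf3a -0.028. There, the slope in TBLC_PlaB- gave Exosc10 -0.039, Upf3a -0.015 and Upf3b -0.017, and the slope in TBLC_Ctrl gave Exosc9 -0.011. There, the slope in siIgf2bp3 gave Cnot3 -0.062, Exosc9 -0.039, Exosc10 -0.031, Upf3b -0.021 and Smg5 -0.058, and the slope difference of siIgf2bp3 and siNC2 gave Cnot11 -0.020 and Exosc2 -0.011. At 1 and 2 h alone, the slope difference of siVirma and siNC1 gave Cnot7 0.047, Xrn2 0.13, Exosc4 -0.027 and Smg6 0.056, and the slope difference of siIgf2bp3 and siNC2 gave Cnot1 0.49, Cnot6 0.35, Cnot6l 0.33, Cnot7 0.075, Cnot11 -0.16, Tob1 0.091, Tob2 0.15, Pan2 0.17, Parn 0.16, Dcp1a 0.38, Lsm1 -0.25, Xrn1 0.37, Xrn2 0.17, Exosc2 -0.19, Exosc3 -0.33, Exosc4 -0.13, Exosc5 -0.35, Exosc7 -0.30, Exosc8 -0.20, Dis3 0.20, Upf2 0.24, Upf3a -0.18, Smg1 0.69, Smg6 0.053, Smg9 -0.15 and Zfp36l2 0.16. At 2 h alone, siIgf2bp3 against siNC2, mean of 1 to 3 h gave Cnot3 -0.087, Cnot4 0.0026, Cnot11 -0.022, Parn 0.016, Exosc9 -0.0025 and Pum2 0.018. With the mean of 1 and 2 h, siIgf2bp3 against siNC2, mean of 1 to 3 h gave Cnot3 -0.0074. Without 0 h, the slope in TBLC_Ctrl gave Dcp2 0.035, Dis3 0.052 and Upf2 0.021, and the slope in siNC1 gave Cnot1 -0.00098, Cnot9 -0.0060 and Exosc3 0.030. In the same way, the slope in siNC2 gave Cnot9 -0.013 and Smg1 -0.0017.

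Depth limits Dcp1b most, with 21 to 116 counts in the sorted libraries, and the Ythdf2 RIP, where the fewest counts of a member were 5.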

Other observations

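TBLC2, a further group in 2MYCP medium that enters no comparison, held the decay genes at levels that can be set beside those of the other untreated TBLC, here as CPM of all counts in the library and not scaled as the CPM above, so that no test was run (mean ± SD, n = 2). The genes given were chosen after their values were seen. Dcp2, the decapping enzyme, had 220.4 ± 0.905 CPM in TBLC2, 233 ± 5.95 in the TBLC of the sorted table, 275 ± 7.08 in TBLC at 0 h and 88.3 ± 0.468 in TBLC_Ctrl at 0 h. Xrn1, the cytoplasmic exonuclease, had 166.5 ± 9.42 CPM in TBLC2, 89.7 ± 0.7 in the TBLC of the sorted table, 104 ± 1.75 in TBLC at 0 h and 44.3 ± 1.14 in TBLC_Ctrl at 0 h. Both genes of the 5′-to-3′ route were thus lowest in TBLC_Ctrl. Zfp36, the AU-rich element binder, had 35.98 ± 1.75 CPM in TBLC2, 9.21 ± 0.765 in the TBLC of the sorted table, 9.21 ± 0.407 in TBLC at 0 h and 15.5 ± 1.22 in TBLC_Ctrl at 0 h. Exosc2, a cap subunit of the exosome, had 40.2 ± 3.73 CPM in TBLC2, 129 ± 0.0676 in the TBLC of the sorted table, 71.1 ± 1.19 in TBLC at 0 h and 80.3 ± 0.407 in TBLC_Ctrl at 0 h, with TBLC2 the lowest group. Exosc5, a ring subunit, varied little, with 38.8 ± 2.18 CPM in TBLC2, 35.5 ± 0.555 in the TBLC of the sorted table, 39.6 ± 0.554 in TBLC at 0 h and 38.1 ± 0.585 in TBLC_Ctrl at 0 h.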
